A study of Mus musculus with 31 samples.

Results

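The comparison described here is that of blood cells at day 2 of culture with the expandable hemangioblast (eHB) lines they were made from. The hemangioblast is a precursor with both blood and endothelial (vessel-lining) progeny. The 10 libraries used, of 31 in the series, were chosen by their titles, which give the same 5 mouse lines at each stage. Messenger RNA was measured by RNA-seq. Day 2 blood (n = 5) was grown for 2 days on Matrigel in N2B27 medium with the Wnt pathway activator CHIR99021 at 3 µM, the growth factors SCF, IL-3 and Flt3L at 100 ng/mL each, and 1.5% oxygen. These cells were then sorted as positive for VE-cadherin, an endothelial junction protein, and negative for CD45, the pan-leukocyte surface protein. The eHB cells (n = 5) were kept unsorted on Matrigel in N2B27 with 2 µg/mL doxycycline, a drug used to switch on inducible transgenes, and the day 2 medium lists none. Line M5 came from embryonic fibroblasts, FL4 and FL10 from fetal liver, and their eHB medium held FGF2 at 12.5 ng/mL. The RB lines (RB3.6.5, RB4.6.9) are of embryonic stem (ES) cell origin. Their eHB medium held the same FGF2 and also VEGF and BMP4 at 20 ng/mL each, the TGF-beta receptor inhibitor SB431542 at 4 µM and a cyclic AMP analogue at 0.25 mM. The eHB cells were at passage 5 to 7. Endothelial cultures of the same 5 lines, kept unsorted for 3 days without doxycycline in VEGF, BMP4, FGF2, SB431542 and the cyclic AMP analogue, were used as a second comparison. The 5 lines are the replicates, each line occurs once in a group, and 5 values of a group are always in the order M5, FL4, FL10, RB3.6.5, RB4.6.9. Each line is a single culture at each stage, and the origin of a line coincides with its eHB medium.

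In the embryo, blood arises from hemogenic endothelium, flat cells with endothelial junctions that round up and bud off as blood. The transcription factor Runx1 is required for that step. The first cells to carry blood genes keep VE-cadherin for a time and gain the integrin CD41 before CD45, and early embryonic blood is rich in primitive red cells, megakaryocytes and their shared precursors. SCF acts through the receptor Kit, Flt3L through Flt3, and IL-3 through a receptor with a shared beta chain that signals through STAT5. Low oxygen stabilises the HIF transcription factors, which raise transcription of glycolytic enzymes.

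Between the stages 53.2% of the genes tested passed the threshold, an adjusted p of 0.05 in edgeR's quasi-likelihood test with the line as a block. Of 12269 genes tested, 3374 (27.5%) were higher and 3156 (25.7%) were lower in day 2 blood than in eHB, and the median log2 fold change was -0.01. Counts of list members called are to be read beside these shares. A gene near 0 in eHB was tested only where it was expressed in day 2 blood. For lists of such genes, higher calls among the tested members were therefore likely in advance. Day 2 blood libraries held 13236697 to 27084974 expected counts, against 22844070 to 39860050 in eHB. Levels are given as deposited TPM, transcript levels corrected for gene length and scaled to the same total in each library, and log2 fold changes ± SE come from the counts. On the TPM scale the median gene was lower in day 2 blood, by a log2 difference of -0.56 with a pseudocount of 1, so a gene can be called higher while some of its TPM values are lower. Every blood library stood above every eHB library in TPM for 9.44% of the genes tested and below for 39.9%. Stage, medium and sorting changed together and cannot be told apart. Oxygen is given for the blood cultures alone, so whether it differed from eHB or from endothelial cultures is not known, and its part cannot be told apart either. In these bulk libraries, more cells that carry a transcript and more transcript per cell cannot be told apart either.

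The eHB lines carry ectopic copies of transcription factors, which the tables list beside the endogenous genes. Of 6 ectopic rows 5 are given here, and these 5 fell in day 2 blood by 5.43 to 9.46 on the log2 scale. Doxycycline was in the eHB medium alone. Ectopic Sox17, an endothelial transcription factor, had 0.895, 1.56, 4.5, 0 and 0 TPM in day 2 blood, against 754, 1220, 935, 995 and 856 TPM in eHB. Its log2 fold change was -9.46 ± 1.09 (adjusted p 0.000909), the largest fall among these 5. Ectopic Gata2 and Mycn fell by similar amounts (log2 fold changes -9.25 ± 0.50 and -8.28 ± 0.81, adjusted p 0.000102 and 0.000559). Ectopic Lmo2, an adaptor that links blood transcription factors, kept more of its transcript, with 46.5, 57, 62.4, 19.2 and 29.9 TPM in day 2 blood, against 5629, 3305, 5301, 1934 and 737 TPM in eHB (log2 fold change -5.43 ± 0.35, adjusted p 0.000165). Ectopic Tal1, the master regulator of blood formation, had 27, 127, 33.8, 1.49 and 27.3 TPM in day 2 blood, against 1295, 4233, 1818, 2856 and 4195 TPM in eHB (log2 fold change -5.94 ± 0.94, adjusted p 0.00254). The highest blood value was that of line FL4 and the lowest that of RB3.6.5. Of the 5 endogenous genes 3 were called higher and none lower. Endogenous Mycn, a Myc family regulator of growth, had 28.4, 52.2, 133, 140.1 and 146 TPM in day 2 blood, against 0, 0.675, 0.286, 19.9 and 6.11 TPM in eHB (log2 fold change 6.57 ± 1.12, adjusted p 0.00336). Endogenous Lmo2 had 118, 125, 96.8, 101 and 122 TPM in day 2 blood, against 58.6, 38.1, 4.22, 24.8 and 2.47 TPM in eHB (log2 fold change 3.54 ± 0.68, adjusted p 0.00519), and the eHB lines differed among themselves more than the blood samples did. Endogenous Tal1 was also called higher (log2 fold change 1.21 ± 0.28, adjusted p 0.0102), while Gata2 and Sox17 were not called (log2 fold changes -0.39 ± 0.15 and 2.88 ± 1.38, adjusted p 0.0624 and 0.115). Endogenous Gata2 was below eHB in all 5 lines and its groups did not overlap, with 32, 53.9, 59.6, 51.6 and 70.7 TPM in day 2 blood, against 74.8, 112, 129, 119 and 112 TPM in eHB. Such a separation downward was seen for 39.9% of all genes tested. Since both copies of a factor have the same coding sequence, how reads were divided between the rows is uncertain.

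The genes of the sort stood as follows. Ptprc, which encodes CD45, was too low to be tested, with 0.244, 0.709, 2.75, 0.52 and 0.031 TPM in day 2 blood, against 0.021, 0.042, 0.011, 0 and 0 TPM in eHB. In the CD45-sorted blood of day 3 from the same lines it reached 16.4 to 102 TPM. It was thus low in day 2 blood of every line, and FL10 and FL4 had the most. Cdh5, which encodes VE-cadherin, had 68, 12.7, 121, 116 and 385 TPM in day 2 blood, against 88.2, 30.6, 60.1, 6.72 and 0.331 TPM in eHB, and the groups overlapped. Within lines its log2 fold change ran between -0.44 in FL4 and 10.36 in RB4.6.9, and the gene was not called (log2 fold change 2.44 ± 1.59, adjusted p 0.23). The eHB cells of RB4.6.9 were the low point: they had 0.331 TPM of Cdh5, 0.276 TPM of Pecam1, the junction protein CD31, and 0.959 TPM of Tie1, an endothelial receptor kinase. In the endothelial cultures Cdh5 stood at 2554 to 3102 TPM.

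**Figure D1:**
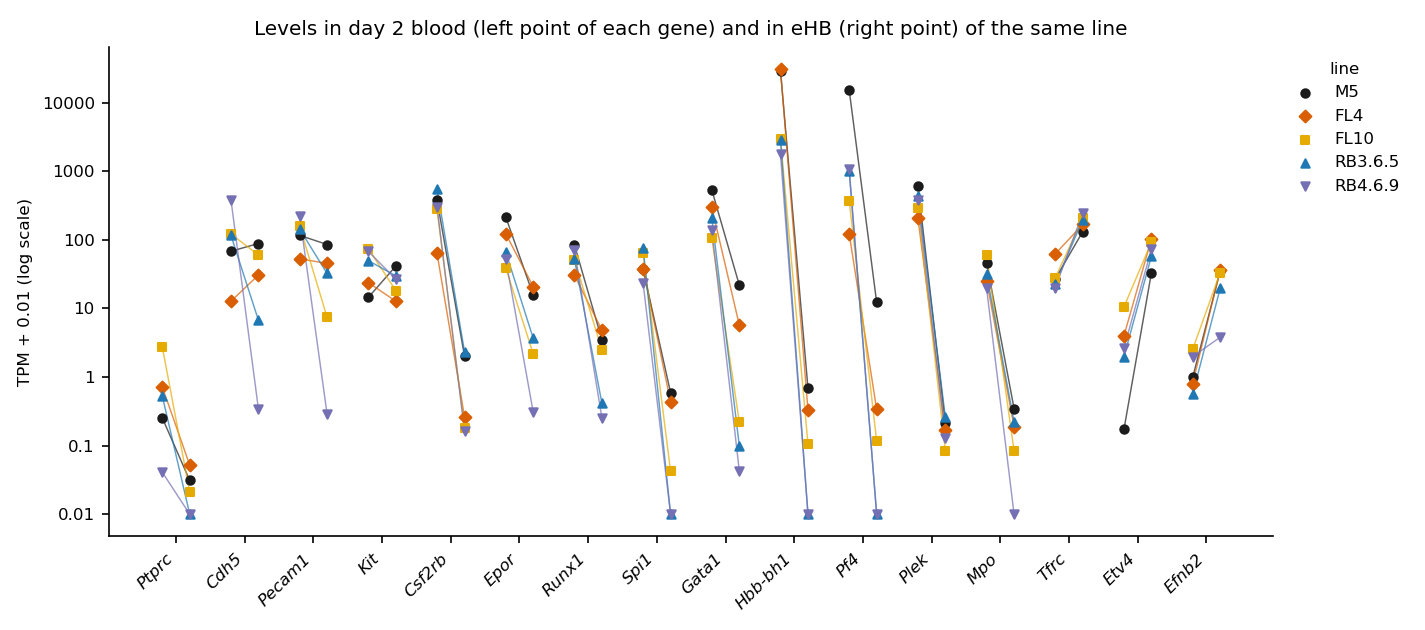
TPM plus 0.01 on a log axis for 16 genes in day 2 blood (left points) and eHB (right points) of the 5 lines, each line joined by its own colour. Blood and platelet genes such as Csf2rb, Spi1, Hbb-bh1, Pf4 and Plek are above every eHB point in all 5 lines, Ptprc stays below 3 TPM, and Etv4, Efnb2 and Tfrc are below every eHB point.

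Receptors for the cytokines in the medium were mostly higher in day 2 blood than in eHB. Of the 5 tested genes in a list of receptors for SCF, Flt3L and IL-3 that also holds Csf2ra, which binds none of them, 4 were called higher and none lower, against 27.5% and 25.7% of all genes. The largest change was in Csf2rb, the beta chain shared by the IL-3, IL-5 and GM-CSF receptors, with 379, 63.5, 277, 546 and 303 TPM in day 2 blood, against 2.01, 0.253, 0.169, 2.32 and 0.154 TPM in eHB (log2 fold change 9.55 ± 0.64, adjusted p 0.00018). Its close mouse-specific copy Csf2rb2, the beta chain used by IL-3, had 177, 19.8, 83.3, 256 and 155 TPM in day 2 blood, against 1.12, 0.801, 0.212, 1.57 and 0.232 TPM in eHB (log2 fold change 8.12 ± 0.73, adjusted p 0.000425). For both chains FL4 had the lowest blood value and RB3.6.5 the highest, and reads of the near-identical copies may be divided wrongly. The alpha chain Il3ra moved less, with 18.8, 15.6, 33.6, 34.5 and 29.8 TPM in day 2 blood, against 6.9, 10.3, 10.46, 12.8 and 8.23 TPM in eHB (log2 fold change 2.07 ± 0.23, adjusted p 0.000835). Kit, the SCF receptor, was already present in eHB and had 14.47, 23.8, 74.4, 49.7 and 67.8 TPM in day 2 blood, against 41.3, 12.7, 18.2, 29.8 and 26.7 TPM in eHB (log2 fold change 1.41 ± 0.41, adjusted p 0.0239). The groups overlapped, M5 alone was lower in blood than in eHB, and the call was lost without FL4, FL10, RB3.6.5 or RB4.6.9 (adjusted p 0.062 to 0.077). Flt3, the receptor for Flt3L, was too low to be tested, with 0.519, 1.31, 4.03, 1.69 and 0.153 TPM in day 2 blood, against 0.179, 0.021, 0.169, 0.034 and 0.011 TPM in eHB. Csf2ra, the GM-CSF receptor alpha chain, was not called (log2 fold change 0.28 ± 0.27, adjusted p 0.406). Against endothelial cultures 2 of 6 tested members of this list were called higher and 2 lower. Kit stood at 99.7 to 204 TPM in endothelial cultures, above every blood library.

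Receptors for cytokines that were not added were also higher than in eHB, but not as a list higher than in endothelial cultures. In the list of other blood cytokine receptors 8 of 9 tested genes were called higher than in eHB and none lower. Against endothelial cultures 4 of 10 were called higher and 3 lower, against 33% and 33.1% of all genes. The list summed to 270 to 541 TPM in day 2 blood and 578 to 984 TPM in endothelial cultures. Epor, the erythropoietin receptor, had 215, 123, 39, 66.2 and 52.7 TPM in day 2 blood, against 15.7, 20.8, 2.16, 3.67 and 0.298 TPM in eHB (log2 fold change 4.91 ± 0.61, adjusted p 0.00112). Il2rg, the common gamma chain, and Il4ra, the IL-4 receptor alpha chain, rose in all 5 lines (log2 fold changes 6.75 ± 0.54 and 4.81 ± 0.55, adjusted p 0.000316 and 0.000893). Tgfbr2, the TGF-beta type II receptor, was called higher (log2 fold change 2.41 ± 0.76, adjusted p 0.0332), although RB3.6.5 had 16.2 TPM in blood and 35.1 TPM in eHB. That call was lost without M5, FL10 or RB4.6.9 (adjusted p 0.0841 to 0.0958). Csf3r, the G-CSF receptor, was low but higher in every line, with 0.719 to 5.04 TPM in day 2 blood, against 0.102 to 0.253 TPM in eHB (log2 fold change 4.66 ± 0.63, adjusted p 0.00145).

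Genes that STAT signalling induces were partly higher: 6 of 11 tested members were called higher and none lower, against 27.5% and 25.7% of all genes. The summed level of the list overlapped, with 363 to 583 TPM in day 2 blood and 338 to 577 TPM in eHB. Cish, a STAT5 target that restrains cytokine receptors, had 42.9, 19, 62, 47 and 42.1 TPM in day 2 blood, against 5.25, 1.85, 1.65, 3.79 and 2.44 TPM in eHB (log2 fold change 4.53 ± 0.28, adjusted p 0.000154). Every blood library was above every eHB library. Bcl2l1, which encodes the survival protein Bcl-xL, had 209, 57.5, 164, 200.5 and 199 TPM in day 2 blood, against 66.7, 54.5, 44.9, 57 and 61.8 TPM in eHB (log2 fold change 2.10 ± 0.28, adjusted p 0.0014). FL4 blood stood apart from the other 4, at the level of eHB. Pim1, a survival kinase, was called higher (log2 fold change 2.20 ± 0.69, adjusted p 0.0323) in 4 of 5 lines, with RB4.6.9 at 20.2 TPM in blood and 42.1 TPM in eHB. It was lost without M5, FL4, FL10 or RB3.6.5 (adjusted p 0.0717 to 0.101). Pim2 and Stat5a were called higher with log2 fold changes of 1.10 ± 0.20 and 1.26 ± 0.28 (adjusted p 0.00469 and 0.00897). Calls were lost in 8 of 15 alternative settings for Pim1, 4 for Stat5a and 3 for Pim2. The other 5 tested members were not called.

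Of 28 tested transcription factors of hemogenic endothelium and blood, 18 were called higher and 1 lower. Runx1 had 84.3, 30.4, 50.9, 52.3 and 72.1 TPM in day 2 blood, against 3.48, 4.83, 2.49, 0.406 and 0.243 TPM in eHB (log2 fold change 5.89 ± 0.88, adjusted p 0.0021). No eHB library came near the lowest blood library, and the ES-derived eHB lines had the least. Spi1, which encodes PU.1, a driver of myeloid fate, had 37.2, 37.7, 64.8, 75.4 and 23.2 TPM in day 2 blood, against 0.579, 0.422, 0.032, 0 and 0 TPM in eHB (log2 fold change 8.91 ± 0.95, adjusted p 0.000734). Day 3 blood went on to 204 to 465 TPM. Gata1, which drives red cell and megakaryocyte fates, had 533, 296, 105, 209.6 and 138 TPM in day 2 blood, against 21.9, 5.74, 0.212, 0.09 and 0.033 TPM in eHB (log2 fold change 8.35 ± 1.16, adjusted p 0.00161). M5 was highest in both groups, so its within-line log2 change was 5.61, against 10.22 in RB4.6.9. Nfe2, the megakaryocyte factor p45, had the largest change of the list, with 751, 126, 171, 429.8 and 233 TPM in day 2 blood, against 1.33, 0.706, 0.191, 0.812 and 0.132 TPM in eHB (log2 fold change 9.81 ± 0.47, adjusted p 7.45e-05). Klf1, the red cell factor EKLF, had 105, 349, 50.9, 9.85 and 7.8 TPM in day 2 blood, against 10.4, 1.99, 0.424, 0.745 and 0.739 TPM in eHB (log2 fold change 5.54 ± 0.80, adjusted p 0.0019). It differed widely between lines in blood, and M5 eHB had more than the blood of both ES-derived lines.

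Among the other factors, Gfi1b, which silences endothelial genes during budding, and Myb, needed for definitive blood, were called higher (log2 fold changes 4.32 ± 0.80 and 2.67 ± 0.52, adjusted p 0.00455 and 0.00536). Gfi1, the partner of Gfi1b, was not tested because it was near absent in some lines: it had 0.051, 0.273, 14.8, 9.43 and 37 TPM in day 2 blood, against 0.137, 0.274, 0.254, 0.203 and 0.232 TPM in eHB. FL10, RB3.6.5 and RB4.6.9 blood stood well above eHB, and M5 and FL4 blood did not. Lyl1, a Tal1 relative, Cbfa2t3, the corepressor Eto2, and Zfpm1, the Gata1 cofactor Fog1, rose in all 5 lines with log2 fold changes of 2.65 ± 0.52, 3.46 ± 0.31 and 1.97 ± 0.21. The ETS factor Erg was not called (log2 fold change 2.24 ± 0.92, adjusted p 0.0766). Bcl11a, which represses embryonic globin genes in definitive red cells, was the member called lower, with 0.041, 1.88, 4.07, 1.67 and 11.3 TPM in day 2 blood, against 0.116, 12.7, 17.5, 4.62 and 25.4 TPM in eHB (log2 fold change -1.27 ± 0.31, adjusted p 0.0133). Its level spanned a wide range between lines in both groups, and M5 was near 0 in each. The call was lost without FL10 (adjusted p 0.0565).

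Globin transcripts were abundant in day 2 blood of all 5 lines and scarce in eHB. The sum over the globin genes was 78490, 71730, 7406, 5087 and 3665 TPM in day 2 blood, against 48.9, 2.32, 1.94, 2.28 and 0.342 TPM in eHB and 2.56 to 3047 TPM in endothelial cultures. M5 and FL4 blood held about an order of magnitude more than the other 3 lines, and M5 eHB held more than the other 4 eHB lines. Globins took at most 7.849% of a library, and without their rows 3366 genes were called higher and 3152 lower. All 8 tested globin genes, of 12 listed, were called higher. The embryonic beta-type gene Hbb-bh1 had 28940, 30620, 2965, 2807 and 1751 TPM in day 2 blood, against 0.674, 0.316, 0.095, 0 and 0 TPM in eHB (log2 fold change 16.69 ± 0.41, adjusted p 9.17e-06). The embryonic Hbb-y followed with 13370, 2941, 392.2, 747 and 427 TPM in day 2 blood, against 1.26, 0.496, 0.742, 0 and 0 TPM in eHB (log2 fold change 13 ± 0.97, adjusted p 0.000248). Its order over lines differed from that of Hbb-bh1, since M5 had more Hbb-y than FL4 and FL4 had more Hbb-bh1 than M5. The embryonic alpha-type Hba-x had 13480, 22540, 2127, 296 and 276 TPM in day 2 blood, against 29.1, 0.664, 0, 0.271 and 0 TPM in eHB (log2 fold change 12.72 ± 1.29, adjusted p 0.000629), and the alpha-type Hba-a2 had 10030, 10990, 1088, 361 and 226 TPM in day 2 blood, against 8.27, 0, 0.646, 0.406 and 0 TPM in eHB (log2 fold change 12.23 ± 1.10, adjusted p 0.000425). The adult beta-type Hbb-bt had 3533, 132, 202, 506 and 486 TPM in day 2 blood and no count in eHB, a ratio of 22370 against a floor of 3 counts. That ratio is not a firm lower bound, since reads may be divided wrongly with the near-identical Hbb-bs. Hbb-bs had 0.203 to 0.253 TPM in the eHB lines other than RB4.6.9. In day 3 blood Hbb-bh1 stood at 135 to 4815 TPM and Hbb-bt at 445 to 3034 TPM. Globin pairs are near-identical (Hba-a1 with Hba-a2, Hbb-bs with Hbb-bt), so the split within a pair is uncertain.

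Enzymes of heme synthesis had smaller changes than globins, and the gene of the transferrin receptor fell. Of 16 tested members 9 were called higher and 1 lower. Alas2, the first and rate-limiting enzyme of erythroid heme synthesis, had 518, 248, 20.8, 17.9 and 33 TPM in day 2 blood, against 7.55, 1.34, 1.22, 1.65 and 0.739 TPM in eHB (log2 fold change 5.99 ± 0.75, adjusted p 0.00112). M5 and FL4 blood were the highest, as with the globins. Uros, Urod and Ppox, the enzymes of later steps, were called higher with log2 fold changes of 2.75 ± 0.53, 2.09 ± 0.35 and 2.17 ± 0.43 (adjusted p 0.00541, 0.00309 and 0.00608). Steap3, the endosomal iron reductase of red cells, had 9.23 to 39.8 TPM in day 2 blood, against 0.406 to 7.26 TPM in eHB (log2 fold change 3.67 ± 0.44, adjusted p 0.00103). Tfrc, the transferrin receptor, was the member called lower: it had 26.8, 62.3, 27.9, 22.8 and 19.9 TPM in day 2 blood, against 132, 167, 206, 196 and 247 TPM in eHB (log2 fold change -2.01 ± 0.40, adjusted p 0.00585). All 5 lines moved the same way.

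Red cell membrane genes and regulators were highest in M5 or FL4 blood for the members given here. Of 19 tested members 15 were called higher and none lower. Slc4a1, the band 3 anion exchanger, had 59.6, 239.9, 29.3, 1.9 and 0.531 TPM in day 2 blood, against 0.8, 7.94, 2.74, 0.011 and 0 TPM in eHB (log2 fold change 5.84 ± 0.65, adjusted p 0.00085). The groups overlapped, and FL4 eHB had more Slc4a1 than the blood of both ES-derived lines. Aqp1, a water channel of red cells and endothelium, had 7.93 to 37.8 TPM in day 2 blood, against 0.348 to 1.07 TPM in eHB (log2 fold change 5.63 ± 0.62, adjusted p 0.000837). The ES-derived lines had the lowest blood values of Slc4a1.

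Gata1 binds a sequence with the core GATA, and the promoters of erythroid genes are shown here because they hold such a word. The word AGATAA was searched on both strands (as AGATAA or TTATCT) in the RefSeq promoter windows of 300 bases, from 250 bases before to 50 bases after the start, on build GRCm38.p6. Genes with at least 1 match were 7 of 16 (43.8%) for red cell membrane genes and regulators, 3 of 11 (27.3%) for heme genes, 5 of 19 (26.3%) for platelet genes and 2 of 9 (22.2%) for globins. They were 3 of 20 (15%) for pan-leukocyte genes, 1 of 17 (5.88%) for glycolysis, 1 of 20 (5%) for hypoxia genes and 0 of 18 for ribosome genes, against 733 of 9292 (7.89%) of all tested genes with a window and 3432 of 27025 (12.7%) of all genes with one. Among members called higher, genes with a match were 4 of 8 red cell, 3 of 8 heme, 3 of 14 platelet and 1 of 7 globin genes. For pan-leukocyte, glycolysis and hypoxia genes called higher they were 2 of 15, 0 of 15 and 0 of 12. A match describes the letters alone. The motifs, the 8 lists searched and the genes printed were chosen after values were seen. Windows of Alas2, of the erythropoietin receptor gene Epor and of the platelet chemokine gene Pf4 follow, each 5′ to 3′ on its gene's strand with the match in capitals.
Alas2, chrX:150547167-150547466, + strand: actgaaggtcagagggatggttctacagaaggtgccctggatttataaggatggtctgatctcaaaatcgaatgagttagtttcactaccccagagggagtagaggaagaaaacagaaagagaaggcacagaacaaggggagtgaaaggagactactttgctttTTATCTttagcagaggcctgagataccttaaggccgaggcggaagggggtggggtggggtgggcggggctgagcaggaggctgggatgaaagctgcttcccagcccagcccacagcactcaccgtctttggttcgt
Epor, chr9:21963527-21963826, - strand: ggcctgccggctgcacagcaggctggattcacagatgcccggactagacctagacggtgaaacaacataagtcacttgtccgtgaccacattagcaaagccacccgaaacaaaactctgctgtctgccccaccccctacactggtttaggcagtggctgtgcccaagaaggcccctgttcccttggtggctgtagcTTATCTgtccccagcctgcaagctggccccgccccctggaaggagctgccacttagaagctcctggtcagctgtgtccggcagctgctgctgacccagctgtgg
Pf4, chr5:90772185-90772484, + strand: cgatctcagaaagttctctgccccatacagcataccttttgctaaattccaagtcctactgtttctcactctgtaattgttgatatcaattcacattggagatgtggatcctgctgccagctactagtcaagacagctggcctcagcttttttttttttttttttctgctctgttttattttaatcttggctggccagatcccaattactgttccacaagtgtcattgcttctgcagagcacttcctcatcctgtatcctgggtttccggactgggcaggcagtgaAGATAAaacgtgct

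Megakaryocyte and platelet genes had some of the largest changes, and their summed level was highest in M5. Of 24 listed members 20 were tested, and 19 of these were called higher and none lower. Their summed level was 29490, 1614, 2275, 7818 and 5949 TPM in day 2 blood, against 179 to 318 TPM in eHB and 529 to 2958 TPM in endothelial cultures. Pf4, a chemokine of platelet granules, had 15260, 122, 373, 1001 and 1086 TPM in day 2 blood, against 12.2, 0.327, 0.106, 0 and 0 TPM in eHB (log2 fold change 12.04 ± 0.84, adjusted p 0.000185). M5 blood alone had more Pf4 than the other 4 blood libraries together, and M5 eHB had more than the other 4 eHB lines. Itga2b, which encodes CD41, had 3991, 372, 478, 1497 and 1441 TPM in day 2 blood, against 43.1, 74.7, 16, 21.8 and 1.37 TPM in eHB (log2 fold change 6.59 ± 1.16, adjusted p 0.00375). Its partner chain Itgb3 had 1144, 64.9, 189.5, 747 and 444 TPM in day 2 blood, against 11.49, 20.0, 4.11, 22 and 0.937 TPM in eHB (log2 fold change 6.32 ± 1.08, adjusted p 0.00343). Vwf, the von Willebrand factor, had 1166, 18.3, 37, 225 and 177 TPM in day 2 blood, against 1.55, 8.2, 8.05, 6.61 and 0.904 TPM in eHB (log2 fold change 5.66 ± 1.59, adjusted p 0.0215). M5 was again the highest, and the call was lost without RB3.6.5 (adjusted p 0.0707).

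Several platelet genes had 0 or 1 count over all eHB libraries. Clec1b, the podoplanin receptor CLEC-2, had 270.4, 5.91, 11.9, 215 and 65.5 TPM in day 2 blood and no count in eHB, at least 3863-fold higher against a floor of 3 counts over the eHB group. Ppbp, the platelet basic protein, had 255, 2.41, 21.7, 22.6 and 19.3 TPM in day 2 blood and no count in eHB, at least 2135-fold higher by the same floor. Tubb1, the beta-tubulin of the platelet ring, had 966, 5.03, 11.9, 276 and 122 TPM in day 2 blood and a value above 0 in 1 eHB library, FL4. The ratio of summed counts was 35500, with a 95% counting interval of 6371 to 1402000. Treml1, a platelet granule receptor, had 635, 35.3, 39.9, 153 and 132 TPM in day 2 blood, and its ratio of counts was 23980 with an interval of 4303 to 947000. These intervals cover counting error alone. FL4 and FL10 had the lowest Clec1b, Tubb1 and Treml1 of the blood libraries. Gp5 and Gp6, platelet surface glycoproteins, were near 0 in some blood libraries and were not tested: Gp5 had 0.224, 5.03, 8.29, 278 and 141 TPM and Gp6 had 67, 0.071, 1.14, 23.4 and 17 TPM in day 2 blood. M5 was the lowest for Gp5 and the highest for Gp6. In eHB Gp5 had 0.168, 0.127, 0.032, 0 and 0 TPM and Gp6 had 0, 0, 0, 0 and 0 TPM.

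**Figure D2:**
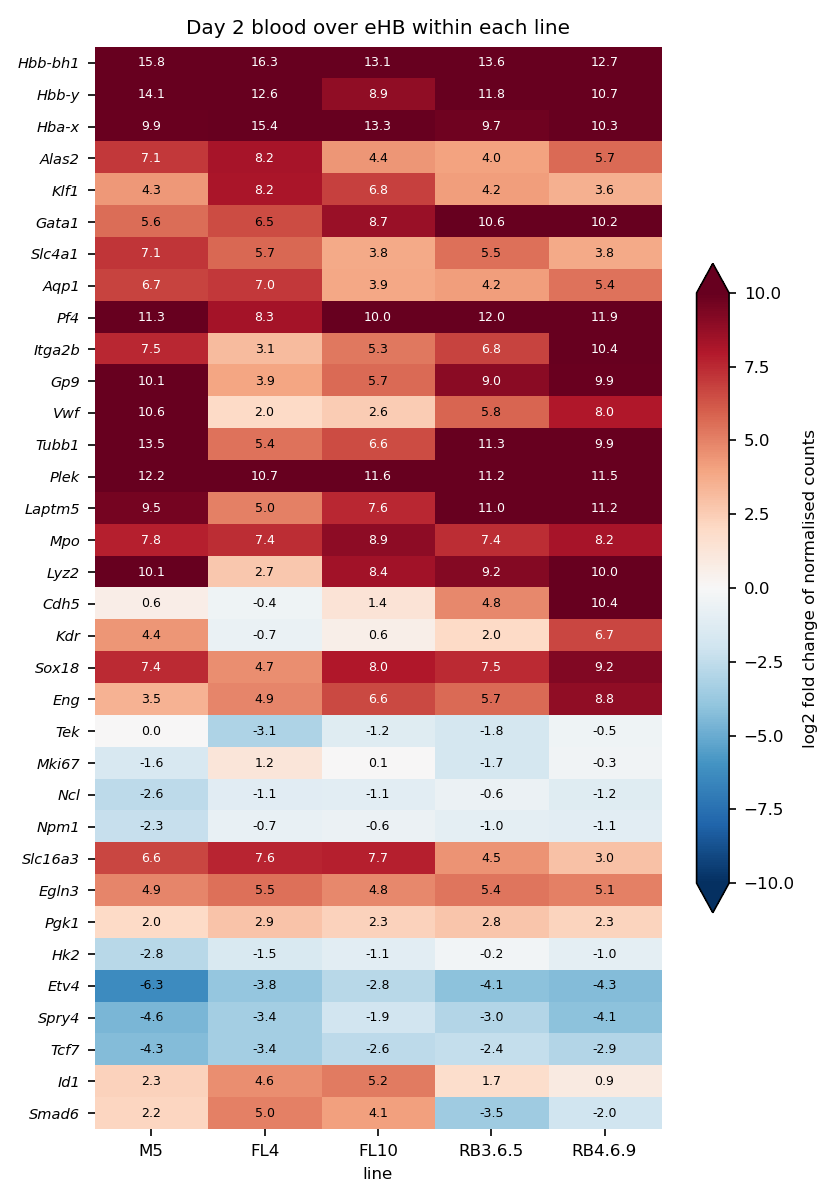
Log2 fold change of day 2 blood over eHB within each of the 5 lines (columns) for 34 genes (rows), with colour giving the change. The globin, platelet and leukocyte genes shown are higher in all 5 lines, Cdh5 is lower in FL4 and higher in RB4.6.9, and Smad6 is higher in the 3 tissue-derived lines and lower in both ES-derived lines.

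Among integrins, 8 of 18 tested chains were called higher and 2 lower, and the lower ones were Itgav, the alpha V chain, and Itgb5, a beta chain that pairs with it. Itgal, the alpha chain of LFA-1 on leukocytes, had 32.4, 3.49, 11, 41.1 and 7.16 TPM in day 2 blood, against 0.032, 0.095, 0.011, 0.023 and 0 TPM in eHB (log2 fold change 9.51 ± 0.89, adjusted p 0.00048). Itgb2, its beta chain, had 368, 40.5, 34.3, 82.6 and 39.3 TPM in day 2 blood, against 16.8, 5.13, 4.68, 2.22 and 0.982 TPM in eHB (log2 fold change 4.84 ± 0.51, adjusted p 0.000712), with M5 the highest in both groups. Itgb7, a homing chain of leukocytes, had 1.67 to 35.8 TPM in day 2 blood, against 0.068 to 2.64 TPM in eHB (log2 fold change 4.81 ± 0.67, adjusted p 0.00165). LFA-1 genes were thus above every eHB library in all blood libraries, and Itgb7 overlapped. Itgb5 had 0.285, 0.81, 2.98, 0.122 and 1.89 TPM in day 2 blood, against 1.85, 67.6, 119, 85.2 and 185 TPM in eHB (log2 fold change -5.59 ± 0.84, adjusted p 0.00212), and M5 eHB stood far below the other 4 eHB lines. Itgav had 0.651 to 3.46 TPM in day 2 blood, against 3.99 to 19.6 TPM in eHB (log2 fold change -1.93 ± 0.35, adjusted p 0.00405).

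Ptprc was near 0, but most other pan-leukocyte genes had risen. Of 28 listed members 24 were tested, of which 23 were called higher and none lower, and the median log2 fold change was 7.42. Their summed level was 4484, 1533, 2421, 3542 and 1918 TPM in day 2 blood, against 18.7 to 122 TPM in eHB. Plek, a substrate of protein kinase C in platelets and leukocytes, had 617, 208, 292, 430.3 and 382 TPM in day 2 blood, against 0.2, 0.158, 0.074, 0.248 and 0.121 TPM in eHB (log2 fold change 11.89 ± 0.32, adjusted p 9.17e-06). All eHB libraries were at 0.248 TPM or less. Coro1a, a regulator of leukocyte actin, had 219, 143, 215, 369 and 95.4 TPM in day 2 blood, against 3.36, 1.35, 1.58, 4.33 and 10.1 TPM in eHB (log2 fold change 6.66 ± 0.71, adjusted p 0.000734). Laptm5, a lysosomal protein of blood cells, had 464, 179, 297, 367 and 165 TPM in day 2 blood, against 1.16, 9.56, 1.93, 0.203 and 0 TPM in eHB (log2 fold change 9.01 ± 1.33, adjusted p 0.00202). Cd52 had 46.5, 30.6, 42, 92.1 and 15.5 TPM in day 2 blood and no count in eHB, at least 979-fold higher against a floor of 3 counts. The signalling genes Lcp2, Dock2 and Hcls1 rose in all 5 lines with log2 fold changes of 10.44 ± 0.85, 10.34 ± 0.58 and 9.78 ± 0.61 (adjusted p 0.000326, 0.000105 and 0.000149). Against endothelial cultures 19 of 25 tested pan-leukocyte genes were called higher and 2 lower. Hcls1 had 29.8 to 111 TPM in day 2 blood and 143 to 246 TPM in endothelial cultures. Fermt3, the kindlin that activates integrins in blood cells, had 2188, 609, 451, 1131 and 938 TPM in day 2 blood, against 139, 4.94, 1.59, 1.83 and 1.12 TPM in eHB (log2 fold change 8.39 ± 0.96, adjusted p 0.000902), and M5 eHB stood at a level far above the other eHB lines.

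Granule genes of neutrophils and monocytes were present at low to moderate levels. Only 10 of 22 listed members were tested, and 9 of these were called higher and none lower. Mpo, the myeloperoxidase of early granulocytes, had 46.6, 25.2, 60.7, 31.4 and 19.6 TPM in day 2 blood, against 0.337, 0.179, 0.074, 0.214 and 0 TPM in eHB (log2 fold change 8.63 ± 0.55, adjusted p 0.00016), and day 3 blood went on to 281 to 2768 TPM. Lyz2, a lysozyme, had 99.2, 6.84, 47.2, 69 and 144 TPM in day 2 blood, against 0, 1.69, 0, 0 and 0 TPM in eHB (log2 fold change 9.49 ± 1.81, adjusted p 0.00496). FL4 was the lowest of the blood libraries and the only eHB line above 0. Serpinb1a, an inhibitor of granule proteases, had 19.9 to 61 TPM in day 2 blood, against 0 to 0.095 TPM in eHB (log2 fold change 10.15 ± 0.49, adjusted p 7.45e-05). Srgn, the granule proteoglycan, was highest in M5, with 314 TPM in blood and 8.49 TPM in eHB (log2 fold change 5.63 ± 0.86, adjusted p 0.00219). The granule proteases Elane and Ctsg were not tested, and their highest value in any of the 10 libraries was 0.082 TPM for Elane and 3.34 TPM for Ctsg. Cpa3, the carboxypeptidase of mast cells and their precursors, had 33.1, 13.5, 60.6, 9.93 and 2.9 TPM in day 2 blood and 1 count over all eHB libraries, in M5. Its ratio of counts was 4315, with a counting interval of 774.4 to 170400. Gzmb, a protease of cytotoxic and mast cells, was not tested and reached 77.5 TPM in FL10 blood.

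Markers of differentiated macrophages and lymphocytes stayed near 0. The summed macrophage list was 6.83, 3.45, 6.35, 10.1 and 10.3 TPM in day 2 blood, against 2.82 to 9.09 TPM in eHB. Tested macrophage genes numbered 3, of which 1 was called higher and none lower, with a median log2 fold change of 2.22. Csf1r, the receptor for macrophage growth factor, had 1.68, 0.527, 0.174, 0.143 and 0.439 TPM in day 2 blood, against 0.411, 0.105, 0.074, 0.034 and 0 TPM in eHB. C1qa, a complement gene of macrophages, was at 0 in all 10 libraries, and Cx3cr1, a chemokine receptor of macrophages, had 0 to 0.184 TPM in day 2 blood, against 0.095 to 0.39 TPM in eHB. Lymphoid genes summed to 2.98 to 6.45 TPM in day 2 blood, against 1.88 to 2.3 TPM in eHB. The T cell gene Cd3e was at 0 in all 10 libraries. Of genes of fetal stem cells 7 of 12 tested members were called higher than in eHB and none lower. Against endothelial cultures 5 of 13 were called higher and 6 lower, against 33% and 33.1% of all genes. This list summed to 277 to 839 TPM in day 2 blood and 1111 to 1950 TPM in endothelial cultures. Cd34, a surface mucin of progenitors and endothelium, had 2.44, 14.8, 86.7, 290.0 and 210.1 TPM in day 2 blood, against 0.19, 0.032, 0.032, 0.35 and 0.088 TPM in eHB (log2 fold change 10.13 ± 0.99, adjusted p 0.000548), with M5 the lowest and RB3.6.5 the highest of the blood libraries. Procr, the protein C receptor, had 34.2, 5.1, 98.9, 56.6 and 205 TPM in day 2 blood, against 47.1, 2.01, 4.07, 2.39 and 0.64 TPM in eHB (log2 fold change 4.26 ± 1.27, adjusted p 0.0269). Its M5 eHB level overlapped with blood, and the call was lost without FL10 or RB3.6.5 (adjusted p 0.0863 to 0.0903). In endothelial cultures Procr stood at 293.5 to 892 TPM, above every blood library. Hlf, a stem cell transcription factor, was not called (log2 fold change 0.93 ± 0.39, adjusted p 0.0815).

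**Figure D3:**
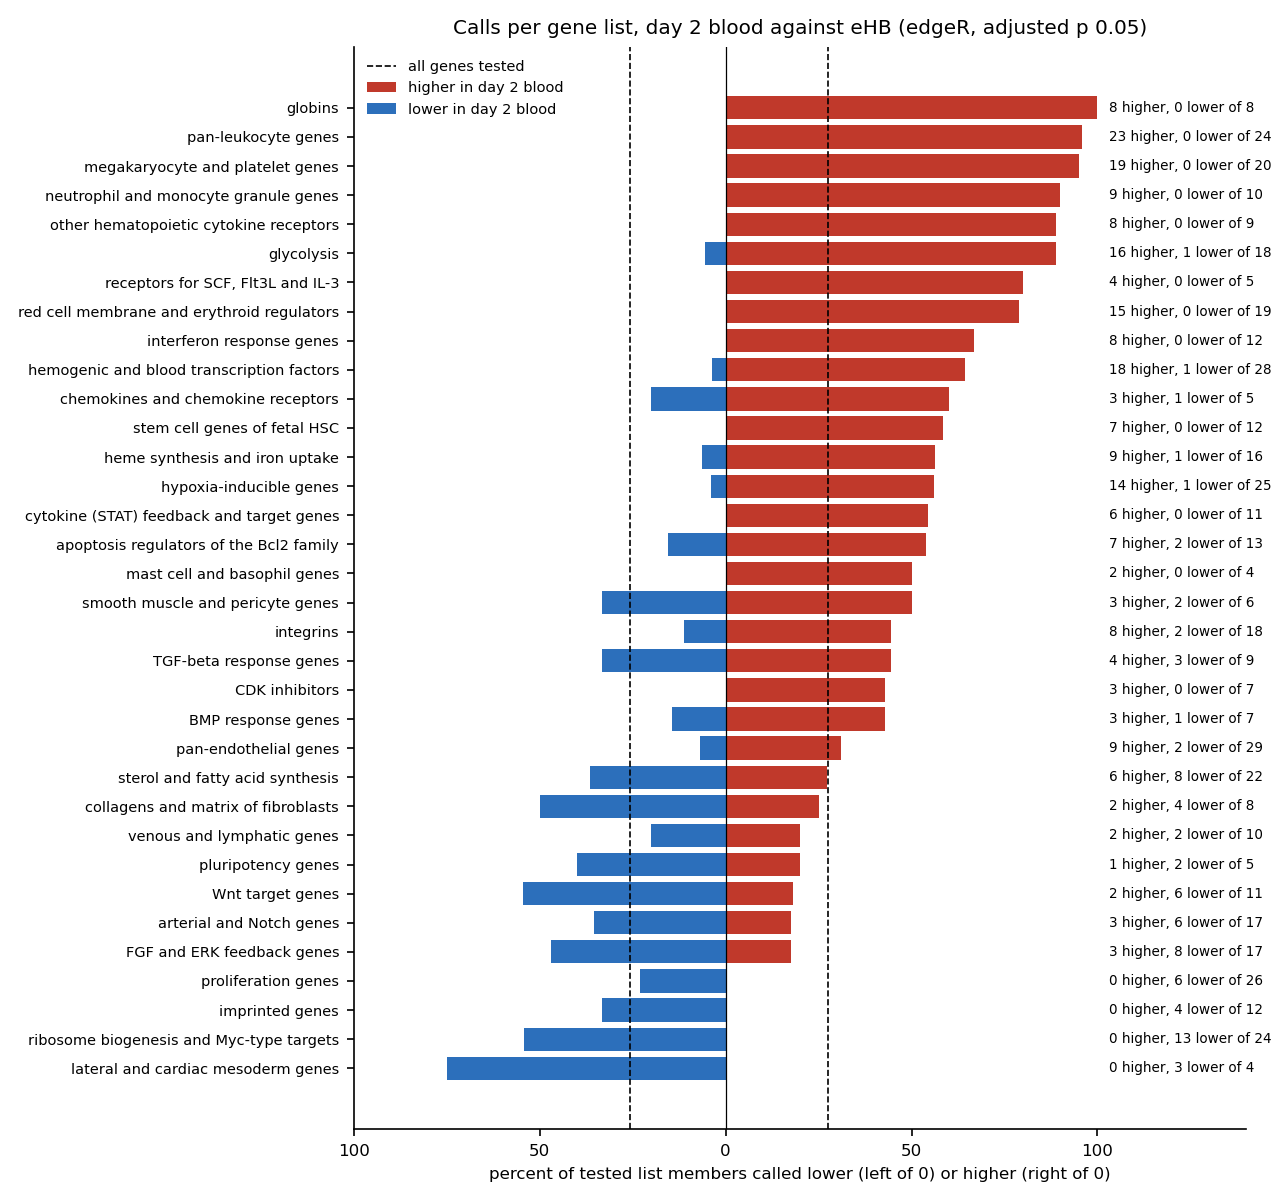
Percent of tested members called higher (right) and lower (left) in day 2 blood against eHB for each list with at least 4 tested members. The dashed lines mark all tested genes, 27.5% higher and 25.7% lower. Globin, platelet, leukocyte, red cell and glycolysis lists exceed the dashed line on the higher side and ribosome, FGF and Wnt lists do on the lower side.

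Endothelial genes differed by line and were far below the endothelial cultures, and the share called higher than in eHB was near that of all genes. Of 29 tested pan-endothelial genes, 9 were called higher and 2 lower in day 2 blood than in eHB, against 27.5% and 25.7% of all genes. The same list summed to 2016, 495, 1458, 1782 and 3273 TPM in day 2 blood, against 455 to 996 TPM in eHB. The sum was lowest in FL4 blood and highest in RB4.6.9 blood. Sox18, an endothelial transcription factor, had 12.2, 1.99, 29, 28.3 and 95.9 TPM in day 2 blood, against 0, 0, 0, 0.102 and 0.066 TPM in eHB (log2 fold change 10.12 ± 0.58, adjusted p 0.000109). Eng, the TGF-beta coreceptor endoglin, had 14, 17, 55.4, 40.0 and 122 TPM in day 2 blood, against 2.5, 0.949, 0.646, 1.17 and 0.287 TPM in eHB (log2 fold change 5.92 ± 0.85, adjusted p 0.00182). Calcrl, the receptor for adrenomedullin, had 4.63 to 19.1 TPM in day 2 blood, against 0.099 to 1.22 TPM in eHB (log2 fold change 4.603 ± 0.69, adjusted p 0.00214), while Ramp2, the partner it needs at the surface, was called lower, with 8.31, 3.01, 8.81, 7.69 and 51.6 TPM in day 2 blood, against 61.2, 42.8, 33.2, 83.6 and 51.5 TPM in eHB (log2 fold change -1.77 ± 0.52, adjusted p 0.025). Tek, the angiopoietin receptor Tie2, had 30.6, 3.18, 17.9, 14.9 and 62.5 TPM in day 2 blood, against 61, 48.8, 55, 81.4 and 116 TPM in eHB (log2 fold change -1.28 ± 0.45, adjusted p 0.046). RB4.6.9 blood kept as much Ramp2 and Tek as some eHB lines, and the call was lost for Ramp2 without M5, FL4, FL10 or RB3.6.5 (adjusted p 0.0578 to 0.0826) and for Tek without FL4, FL10 or RB3.6.5 (adjusted p 0.0668 to 0.131).

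Against the endothelial cultures of the same lines nearly all endothelial genes were lower. There 66.1% of 12482 tested genes were called, 33% higher and 33.1% lower in day 2 blood, and 32 of 34 pan-endothelial genes were called lower and 1 higher. On the TPM scale the median of all genes tested in this second comparison was lower by a log2 difference of -0.43. The summed level was 495 to 3273 TPM in day 2 blood and 16320 to 20300 TPM in endothelial cultures. The member called higher was Vwf (log2 fold change 6.54 ± 0.93, adjusted p 0.00101), which platelets also carry. Kdr, a VEGF receptor, had 30.9, 12.9, 53.4, 108 and 233 TPM in day 2 blood, against 513 to 785 TPM in endothelial cultures (log2 fold change -3.04 ± 0.57, adjusted p 0.00311). Against eHB it was not called, with 2.96, 36.2, 45.1, 44.6 and 3.1 TPM in eHB (log2 fold change 2.41 ± 1.18, adjusted p 0.122). Cdh5 was lower than in endothelial cultures in every line (log2 fold change -4.47 ± 0.68, adjusted p 0.00135), although the blood cells were sorted for the protein.

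Arterial and Notch genes were called in both directions: 6 of 17 tested members were called lower and 3 higher, against 25.7% lower and 27.5% higher of all genes, and with the ES-derived lines alone 2 were lower and 3 higher. Efnb2, the arterial ephrin, had 0.976, 0.79, 2.53, 0.551 and 1.97 TPM in day 2 blood, against 34.7, 36.4, 33, 19.5 and 3.78 TPM in eHB (log2 fold change -3.52 ± 0.67, adjusted p 0.00514). The Notch ligand Jag1 had 0.112, 0.405, 3.62, 0.582 and 2.2 TPM in day 2 blood, against 0.695, 28.5, 16.5, 8.3 and 8.01 TPM in eHB (log2 fold change -2.62 ± 0.62, adjusted p 0.0115), and Jag2 had 26.2, 30.4, 49.8, 43.4 and 30.8 TPM in day 2 blood, against 173, 186, 191, 74.4 and 100.0 TPM in eHB (log2 fold change -1.29 ± 0.27, adjusted p 0.00764). The groups overlapped for Jag1, where M5 eHB was low. For Jag2 every blood library was below every eHB library, as for 39.9% of all genes tested. Dll1, another Notch ligand, was lower in 4 of 5 lines (log2 fold change -2.92 ± 0.77, adjusted p 0.0174) and lost its call without FL10 or RB3.6.5 (adjusted p 0.059 to 0.0628). Nrarp, a Notch target that restrains the pathway, went the other way, with 12.4, 26.9, 40.9, 20.6 and 64.4 TPM in day 2 blood, against 4.05, 9.35, 0.858, 1.6 and 1.12 TPM in eHB (log2 fold change 4.28 ± 0.74, adjusted p 0.00346). Of the venous and lymphatic genes 2 of 10 were called higher and 2 lower, against 27.5% and 25.7% of all genes. Nrp2, a lymphatic VEGF coreceptor, had 2.51 to 15.8 TPM in day 2 blood, against 14.1 to 62.1 TPM in eHB (log2 fold change -2.36 ± 0.52, adjusted p 0.00871), and the venous receptor Ephb4 was called lower (log2 fold change -1.32 ± 0.41, adjusted p 0.0306) with 47.2 TPM in RB4.6.9 blood and 52 TPM in RB4.6.9 eHB. The Ephb4 call was lost without M5, FL4 or RB3.6.5 (adjusted p 0.0746 to 0.0987). Against endothelial cultures 14 of 16 arterial and Notch genes and 10 of 11 venous genes were lower in day 2 blood.

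**Figure D4:**
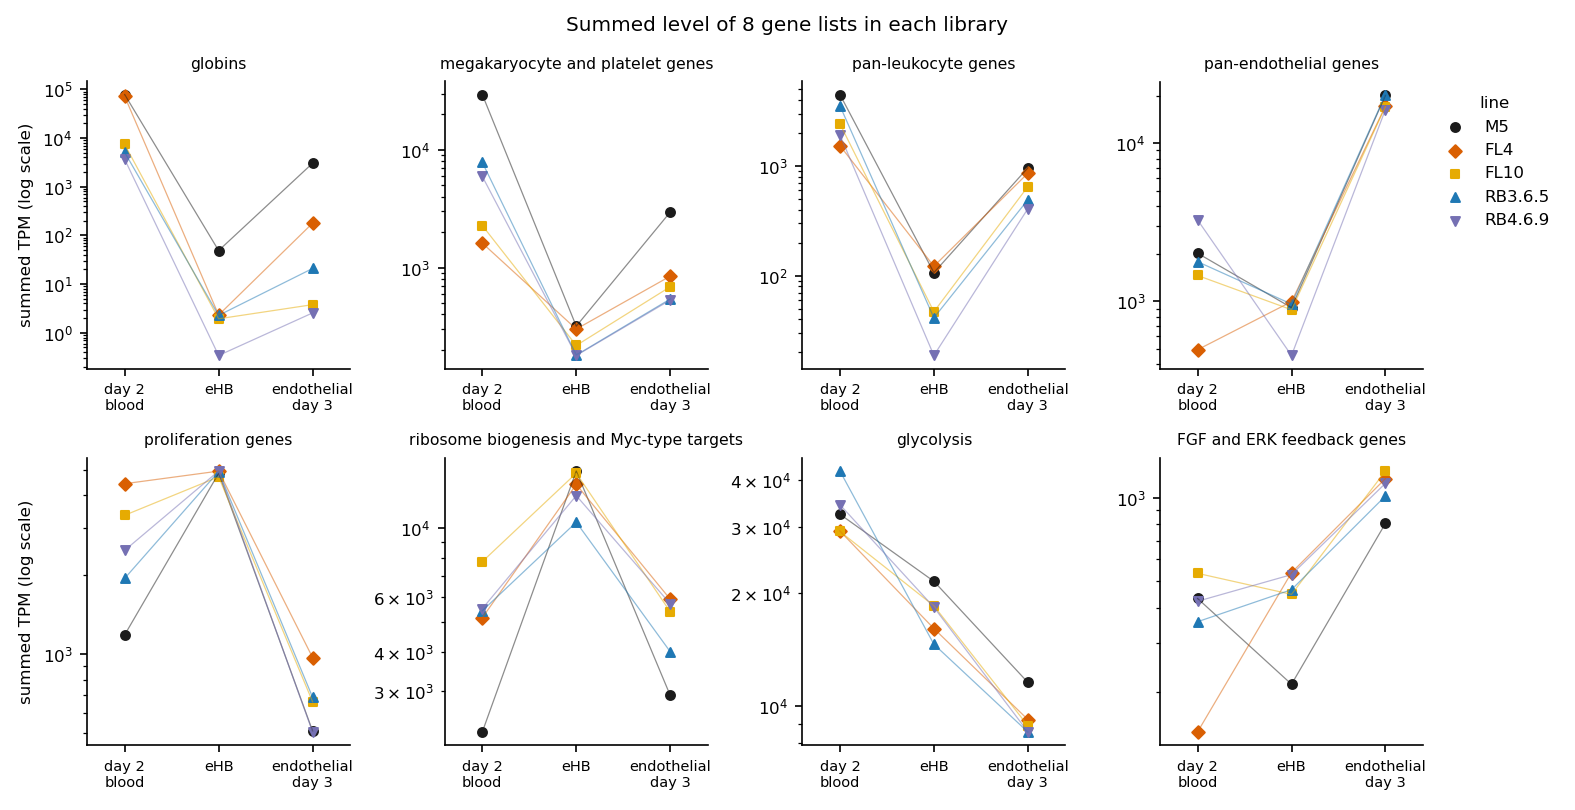
Summed TPM of 8 gene lists (log axis) in day 2 blood, eHB and endothelial cultures, 1 point per line. Pan-endothelial genes are at 16320 TPM or more in all endothelial cultures and at 3273 TPM or less in all blood libraries, and globin sums of day 2 blood span 3665 to 78490 TPM.

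Glycolytic enzymes and transporters rose, and every member called higher was higher in all 5 lines. Of 18 tested members 16 were called higher and 1 lower, with a median log2 fold change of 1.89, and the summed level was 29220 to 42320 TPM in day 2 blood, against 14640 to 21530 TPM in eHB. Slc16a3, the lactate exporter MCT4, had 136, 162, 110.3, 363 and 390.4 TPM in day 2 blood, against 2.34, 0.896, 0.392, 25.3 and 68.4 TPM in eHB (log2 fold change 5.98 ± 0.92, adjusted p 0.00232). The ES-derived eHB lines already had more of it than the other 3. Pgk1, which makes ATP from bisphosphoglycerate, had 1716, 2424, 2658, 2837 and 2620 TPM in day 2 blood, against 861, 587, 692, 662 and 739 TPM in eHB (log2 fold change 2.45 ± 0.17, adjusted p 0.000192). Tpi1, the triose phosphate isomerase, had 1969, 2165, 1680, 2341 and 1927 TPM in day 2 blood, against 715, 431, 481, 581 and 706 TPM in eHB (log2 fold change 2.48 ± 0.21, adjusted p 0.000362). Ldha, which turns pyruvate to lactate, had 4307, 4419, 4233, 6241 and 4775 TPM in day 2 blood, against 2584, 1951, 2014, 1525 and 1976 TPM in eHB (log2 fold change 1.93 ± 0.20, adjusted p 0.000696). Every blood library was above every eHB library for these 4 genes. The hexokinase genes moved in opposite directions: Hk1 had 418, 197, 164, 159 and 122 TPM in day 2 blood, against 54.5, 34.4, 30.5, 36.7 and 38.5 TPM in eHB (log2 fold change 2.99 ± 0.28, adjusted p 0.000506), while Hk2 had 6.06, 16.5, 36.1, 37.1 and 33.9 TPM in day 2 blood, against 83.7, 85.2, 98.8, 70.8 and 89.1 TPM in eHB (log2 fold change -1.30 ± 0.35, adjusted p 0.0186). Aldoc was also called higher (log2 fold change 2.63 ± 0.56, adjusted p 0.00768). The sugar transporter Slc2a1 had 202 to 579.9 TPM in day 2 blood, against 86.1 to 118 TPM in eHB (log2 fold change 2.30 ± 0.24, adjusted p 0.000729). Compared with endothelial cultures, all 18 tested members were called higher, Hk2 included (log2 fold change 4.70 ± 0.43, adjusted p 0.000215).

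Other hypoxia-inducible genes were less uniform: 14 of 25 were called higher and 1 lower. With limma on log2(TPM + 1) 9 were higher and 4 lower, against 1753 higher and 5929 lower of all 12269 genes tested. Egln3, the HIF prolyl hydroxylase PHD3, had 183, 114, 176, 202 and 167 TPM in day 2 blood, against 12.5, 4.23, 8.07, 7.79 and 6.71 TPM in eHB (log2 fold change 5.15 ± 0.20, adjusted p 3.16e-05). Ankrd37 had 21.5, 42.6, 31.5, 31.6 and 34.6 TPM in day 2 blood, against 6.53, 3.33, 3.68, 3.79 and 3.41 TPM in eHB (log2 fold change 3.65 ± 0.32, adjusted p 0.000415). Bnip3, a mitophagy receptor, had 102.7, 184, 146, 192 and 179 TPM in day 2 blood, against 27.6, 19.6, 25.2, 57.1 and 66.4 TPM in eHB (log2 fold change 2.83 ± 0.32, adjusted p 0.000893). For these 3 genes the groups did not overlap. Ndrg1 was higher than in eHB (log2 fold change 4.12 ± 0.36, adjusted p 0.000406) and lower than in endothelial cultures (log2 fold change -2.82 ± 0.20, adjusted p 0.000116). Vegfa, the classical HIF target, was not called, with 13.9, 28.2, 38.8, 24 and 38.2 TPM in day 2 blood, against 26.6, 31.4, 36.2, 79.3 and 77.2 TPM in eHB (log2 fold change -0.12 ± 0.28, adjusted p 0.743). Its sign changed when RB3.6.5 or RB4.6.9 was left out, whose eHB levels were the highest. Car12, a carbonic anhydrase, was called lower (log2 fold change -2.86 ± 0.77, adjusted p 0.0183), with RB3.6.5 at 1.75 TPM in blood and 1.96 TPM in eHB, and lost its call without M5 (adjusted p 0.065).

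HIF binds a core of ACGTG, and windows that hold it are shown for genes of this group. The word was searched on both strands (ACGTG or CACGT, and CACGTG counts as 2 overlapping matches) in the same RefSeq windows of 300 bases. It was found for 12 of 17 glycolysis genes (70.6%) and 14 of 20 hypoxia genes (70%), against 2759 of 9292 tested genes (29.7%) and 5886 of 27025 genes with a window in all (21.8%). It was found for 5 of 11 heme genes (45.5%), 6 of 18 ribosome genes (33.3%), 5 of 19 platelet genes (26.3%), 3 of 20 pan-leukocyte genes (15%), 0 of 16 red cell genes and 0 of 9 globin genes. Among members called higher the word was present in 10 of 15 glycolysis genes and 8 of 12 hypoxia genes (66.7% each). Hk2, which was called lower, holds it too. Windows of Pgk1, Ldha, Slc16a3 and Ankrd37 follow with the matches in capitals. Ldha has a second window, chr7:46846832-46847131 on the + strand, which holds no match and is not printed.
Pgk1, chrX:106186850-106187149, + strand: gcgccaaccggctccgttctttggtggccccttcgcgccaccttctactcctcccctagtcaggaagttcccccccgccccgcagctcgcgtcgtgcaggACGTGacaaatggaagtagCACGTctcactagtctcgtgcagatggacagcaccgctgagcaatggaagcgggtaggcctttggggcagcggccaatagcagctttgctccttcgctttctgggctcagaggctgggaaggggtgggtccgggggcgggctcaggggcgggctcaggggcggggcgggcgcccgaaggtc
Ldha, chr7:46845554-46845853, + strand: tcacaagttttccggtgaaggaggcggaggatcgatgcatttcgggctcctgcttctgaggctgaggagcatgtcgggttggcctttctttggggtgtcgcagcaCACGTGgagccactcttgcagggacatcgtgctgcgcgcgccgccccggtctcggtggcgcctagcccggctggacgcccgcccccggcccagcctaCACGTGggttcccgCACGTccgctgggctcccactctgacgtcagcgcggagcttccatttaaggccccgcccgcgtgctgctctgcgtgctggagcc
Slc16a3, chr11:120948817-120949116, + strand: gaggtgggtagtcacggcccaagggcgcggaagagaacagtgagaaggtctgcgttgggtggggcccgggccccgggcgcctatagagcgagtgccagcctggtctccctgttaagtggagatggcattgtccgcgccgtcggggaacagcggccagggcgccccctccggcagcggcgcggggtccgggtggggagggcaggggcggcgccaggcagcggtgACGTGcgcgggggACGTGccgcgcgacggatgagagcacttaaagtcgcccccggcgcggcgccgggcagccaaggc
Ankrd37, chr8:45999801-46000100, - strand: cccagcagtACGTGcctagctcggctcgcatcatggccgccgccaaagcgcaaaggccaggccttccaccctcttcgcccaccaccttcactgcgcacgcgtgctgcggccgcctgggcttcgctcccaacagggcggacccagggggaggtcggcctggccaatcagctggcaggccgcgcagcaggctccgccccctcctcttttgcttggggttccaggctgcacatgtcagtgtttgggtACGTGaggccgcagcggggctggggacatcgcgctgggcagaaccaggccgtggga

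**Figure D5:**
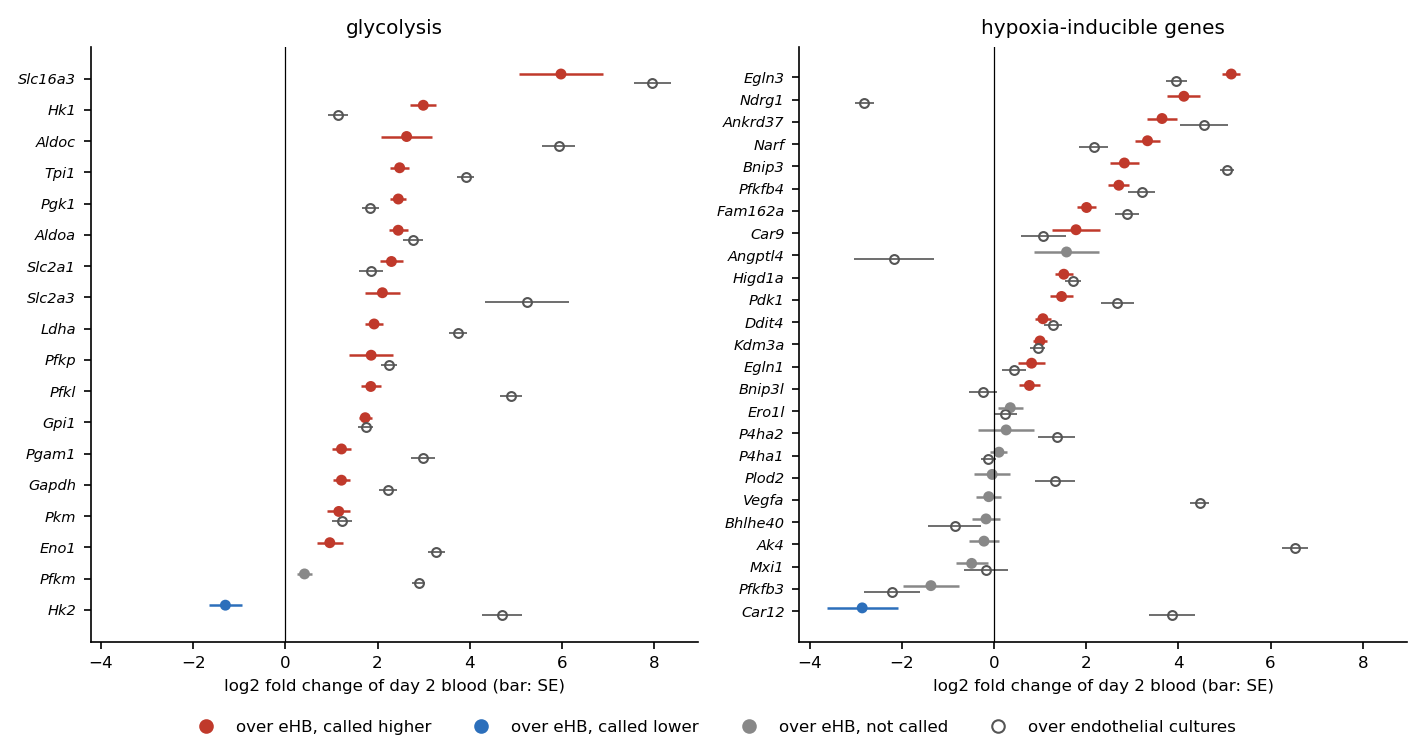
Log2 fold change ± SE of glycolysis and hypoxia genes in day 2 blood over eHB and over endothelial cultures (5 lines each). Most genes lie to the right of 0 in both comparisons, Hk2 lies left of 0 over eHB and right of it over endothelial cultures, and Ndrg1 does the reverse.

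Of 26 tested proliferation genes none was called higher in day 2 blood than in eHB, against 27.5% of all genes. Lower calls numbered 6, near the 25.7% of all genes. On the TPM scale (limma, pseudocount 1) 19 were lower, where 5929 of all 12269 genes tested were lower and 1753 higher. The summed level was 1182, 4423, 3358, 1936 and 2472 TPM in day 2 blood, against 4696 to 4940 TPM in eHB. M5 blood was the lowest and FL4 blood the highest, below every eHB library. Rrm2, the ribonucleotide reductase subunit of S phase, had 44.6, 147, 137, 70.8 and 79.4 TPM in day 2 blood, against 295, 420.0, 404, 462 and 477 TPM in eHB (log2 fold change -1.55 ± 0.25, adjusted p 0.00254). Mcm7, of the replicative helicase, had 45.8, 155, 141, 74.2 and 94.8 TPM in day 2 blood, against 279, 324, 303, 266 and 317 TPM in eHB (log2 fold change -1.003 ± 0.22, adjusted p 0.00853). Both were below every eHB library in all 5 blood libraries, as were 39.9% of all genes tested. Cyclins E, encoded by Ccne1 and Ccne2, were called lower (log2 fold changes -1.17 ± 0.30 and -1.04 ± 0.33, adjusted p 0.0146 and 0.0348). The Ccne2 call was lost without FL10, RB3.6.5 or RB4.6.9 (adjusted p 0.0504 to 0.0795). Mki67, the cycling-cell marker Ki-67, had 19, 132, 77, 22 and 59.3 TPM in day 2 blood, against 116, 102, 95.6, 119 and 101 TPM in eHB and was not called (log2 fold change -0.49 ± 0.45, adjusted p 0.38). M5 and RB3.6.5 blood had the least Mki67, and FL4 blood had more than any eHB line. Against endothelial cultures 25 of 26 were called higher in day 2 blood, where Mki67 was at 4.33 to 21.1 TPM (log2 fold change 2.93 ± 0.37, adjusted p 0.000622).

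Inhibitors of cyclin-dependent kinases were partly higher: 3 of 7 tested members were called higher and none lower, against 27.5% and 25.7% of all genes. Cdkn2d, which encodes p19 of the INK4 family, had 230.4, 95.8, 70.2, 187 and 114 TPM in day 2 blood, against 18, 13.1, 8.29, 25.3 and 17.2 TPM in eHB (log2 fold change 3.71 ± 0.26, adjusted p 0.000185). M5 had the highest blood value of Cdkn2d and the lowest summed proliferation genes. Cdkn2b, which encodes p15, and Cdkn2a were called higher (log2 fold changes 1.95 ± 0.33 and 0.83 ± 0.17, adjusted p 0.00318 and 0.0067), and Cdkn1a, which encodes p21, was not (log2 fold change 0.73 ± 0.29, adjusted p 0.0648). In TPM Cdkn2a was lower in blood than in eHB in M5 and FL4, its groups overlapped, and its call was lost with limma on log2(TPM + 1) (adjusted p 0.448), with the ES-derived (0.0802) or tissue-derived (0.0525) lines alone and against a 2-fold change.

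Ribosome biogenesis genes were lower in day 2 blood or not called. Of 24 tested members 0 were called higher and 13 lower, and with the ES-derived lines alone 5 were lower. The summed level was 2216, 5149, 7790, 5420 and 5504 TPM in day 2 blood, against 10420 to 15200 TPM in eHB, and M5 blood was the lowest. Ncl, the nucleolar protein nucleolin, had 80.5, 226, 372, 239 and 269.7 TPM in day 2 blood, against 993, 863, 1000, 573 and 844 TPM in eHB (log2 fold change -1.29 ± 0.29, adjusted p 0.00898). Gnl3, nucleostemin, had 23.1, 82.5, 131, 76.4 and 85.5 TPM in day 2 blood, against 299, 278, 318, 220.5 and 318 TPM in eHB (log2 fold change -1.34 ± 0.30, adjusted p 0.00894). Npm1, nucleophosmin, had 542, 1779, 3071, 1609 and 1850 TPM in day 2 blood, against 5538, 5281, 6017, 4825 and 5063 TPM in eHB (log2 fold change -1.13 ± 0.26, adjusted p 0.0103). For these 3 genes every blood library was below every eHB library, as for 39.9% of all genes tested. Against endothelial cultures 22 of 24 were called higher, although the summed level there was 2904 to 5903 TPM.

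Wnt target genes were mostly lower in day 2 blood, whose medium held CHIR99021. Of 11 tested members 2 were called higher and 6 lower. Lgr5, a Wnt target and R-spondin receptor, had 0, 0.071, 0.399, 0.327 and 0.225 TPM in day 2 blood, against 5.89, 24.6, 18.9, 6.22 and 1.03 TPM in eHB (log2 fold change -4.83 ± 0.98, adjusted p 0.0065). Tcf7, which encodes the factor TCF1, had 0.203, 0.516, 1.49, 2.09 and 3.6 TPM in day 2 blood, against 10.2, 10.3, 12.6, 17.9 and 38.2 TPM in eHB (log2 fold change -3.14 ± 0.37, adjusted p 0.000909). Both were below every eHB library in all blood libraries, as were 39.9% of all genes tested. Axin2, a target in most tissues, was low in both groups and not called, with 0, 0.537, 0.993, 0.561 and 2.8 TPM in day 2 blood, against 0.453, 1.49, 2.1, 1.78 and 3.09 TPM in eHB (log2 fold change -0.86 ± 0.59, adjusted p 0.25). Ccnd1, cyclin D1, had 17.4, 28, 176, 106 and 156 TPM in day 2 blood, against 130.0, 268, 279, 401 and 331 TPM in eHB (log2 fold change -1.29 ± 0.33, adjusted p 0.0155), and lost its call without M5 (adjusted p 0.0505). The exceptions were Myc, with 14.2, 29.1, 55.5, 46 and 35.5 TPM in day 2 blood, against 0.895, 9.56, 1.68, 2.75 and 0.121 TPM in eHB (log2 fold change 5.04 ± 0.82, adjusted p 0.00281), and Rnf43, a Wnt receptor ligase, with 0.47 to 12.5 TPM in day 2 blood, against 0.042 to 0.948 TPM in eHB (log2 fold change 5.21 ± 0.89, adjusted p 0.00333).

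Genes of the FGF and ERK feedback loop were partly lower. FGF2 was in the eHB medium and is not listed for day 2 blood, and its part in these changes was not tested. Of 17 tested members 3 were called higher and 8 lower. Etv4 and Etv5, ETS factors that FGF signalling induces, were below every eHB library in all blood libraries, as were 39.9% of all genes tested. Etv4 had 0.163, 3.98, 10.52, 1.97 and 2.63 TPM in day 2 blood, against 33.1, 102.7, 92.2, 57.9 and 73.2 TPM in eHB (log2 fold change -4.12 ± 0.47, adjusted p 0.000893). Etv5 had 1.73, 3.3, 9.63, 5.4 and 6.84 TPM in day 2 blood, against 25.4, 67.7, 59.9, 53.5 and 76.7 TPM in eHB (log2 fold change -2.86 ± 0.22, adjusted p 0.00028). The feedback inhibitors Spry4 and Spred2 had log2 fold changes of -3.41 ± 0.44 and -1.61 ± 0.18 (adjusted p 0.00129 and 0.000859). Spry1 rose in all 5 lines (log2 fold change 1.38 ± 0.38, adjusted p 0.021), with M5 the highest, and lost its call without RB3.6.5 (adjusted p 0.0529). Ier3, an immediate early gene, was called higher (log2 fold change 2.88 ± 0.49, adjusted p 0.00328), most of all in FL10 and RB4.6.9 blood. Against endothelial cultures, whose medium held FGF2, 12 of 17 were lower and none higher.

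BMP target genes had levels in eHB that differed by origin, which coincides with BMP4 in the eHB medium. Over all lines 3 of 7 tested members were called higher and 1 lower, against 27.5% and 25.7% of all genes. With the ES-derived lines alone 1 was higher and 4 lower. Id1, an inhibitor of differentiation, had 11.7, 29.4, 108, 153 and 144 TPM in day 2 blood, against 4.63, 1.88, 3.52, 74.7 and 102.7 TPM in eHB (log2 fold change 2.92 ± 0.75, adjusted p 0.0154). The ES-derived eHB lines were far above the other 3, and the log2 change was 0.92 in RB4.6.9 and 5.21 in FL10. Id2 had 5.17, 21.8, 120.2, 36 and 25.4 TPM in day 2 blood, against 0.211, 0.274, 0.403, 3.32 and 23.7 TPM in eHB (log2 fold change 5.15 ± 1.29, adjusted p 0.0143). RB4.6.9 eHB overlapped with blood. Smad6, a BMP feedback inhibitor, had 0.895, 8.9, 3.75, 2.27 and 9.19 TPM in day 2 blood, against 0.337, 0.411, 0.201, 42.9 and 48.9 TPM in eHB and was not called (log2 fold change 1.45 ± 1.88, adjusted p 0.535). Smad6 was higher in blood of the 3 tissue-derived lines and lower in blood of both ES-derived lines. Over all 13507 genes tested for such a difference between origins 0 passed the threshold in edgeR (0%), 1288 had an unadjusted p under 0.05, and Smad6 had an adjusted p of 0.384. On simulated data with the same spread for all genes, that fit called 1% of true log2 differences of 1 and 54% of those of 3. The rates in the real data may differ. A gene that was not called may therefore still differ between origins.

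TGF-beta response genes went both ways, with 4 of 9 called higher and 3 lower, against 27.5% and 25.7% of all genes. With limma on log2(TPM + 1) 4 were higher and 5 lower, against 1753 higher and 5929 lower of all 12269 genes tested. Tgfb1, the ligand itself, which platelets store, had 1542, 245, 529, 971 and 779.5 TPM in day 2 blood, against 52.8, 52, 13.2, 39.4 and 2.33 TPM in eHB (log2 fold change 5.69 ± 0.84, adjusted p 0.002). Ctgf, a matrix protein, was called higher (log2 fold change 5.16 ± 0.98, adjusted p 0.00499) and stood highest in FL10 and RB4.6.9 blood, at 41.9 and 21 TPM. M5 blood had the most Tgfb1, as with platelet genes. Tgif1, a repressor of the pathway, had 0.936, 2.3, 9.61, 2.32 and 9.94 TPM in day 2 blood, against 52.4, 55.5, 55.5, 70.9 and 76.7 TPM in eHB (log2 fold change -3.47 ± 0.45, adjusted p 0.00127).

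Genes of sterol and fatty acid synthesis were called about as often as all genes: 6 of 22 tested members were called higher and 8 lower, against 27.5% and 25.7% of all genes. With limma on log2(TPM + 1) 1 was higher and 13 lower, against 1753 higher and 5929 lower of all 12269 genes tested. Scd1, the desaturase, had 13.5, 36.7, 17.4, 30.9 and 31 TPM in day 2 blood, against 116, 96, 127, 241 and 313 TPM in eHB (log2 fold change -2.08 ± 0.34, adjusted p 0.00297). Insig1 and Hmgcs1, sterol-regulated genes, were called lower (log2 fold changes -1.22 ± 0.22 and -1.10 ± 0.22, adjusted p 0.00391 and 0.00616), and Mvk, an enzyme of the same pathway, higher (log2 fold change 1.42 ± 0.23, adjusted p 0.00261). Interferon response genes were higher than in eHB or not called, with 8 of 12 higher and none lower. Against endothelial cultures 5 of 14 were called higher and 5 lower. The interferon list summed to 359 to 729 TPM in day 2 blood and 939 to 1577 TPM in endothelial cultures. B2m, the light chain of MHC class I, had 356, 151, 377, 301 and 253 TPM in day 2 blood, against 92, 35.2, 44.5, 29.4 and 7.05 TPM in eHB (log2 fold change 3.76 ± 0.43, adjusted p 0.000909). Usp18, a brake on interferon signalling, had 2.38, 18.3, 45.8, 11.8 and 11.1 TPM in day 2 blood, against 0, 0.2, 0.191, 0.485 and 1.04 TPM in eHB (log2 fold change 6.22 ± 0.83, adjusted p 0.0014). Both were above every eHB library in all blood libraries. Isg15 was highest in M5 blood, at 96.6 TPM, against 0.4 TPM in M5 eHB (log2 fold change 5.09 ± 0.96, adjusted p 0.00487). Of the Bcl2 family 7 of 13 were called higher and 2 lower. The genes of the killer proteins Bak1, Bad and Bbc3 were called higher, as was Bcl2l1 (log2 fold changes of the 3 genes 1.18 ± 0.15, 1.55 ± 0.27 and 0.98 ± 0.21, adjusted p 0.0012, 0.0034 and 0.00815). Bbc3 lost its call in 5 of 15 alternative settings, and Bak1 and Bad in 1 each. Bcl2l11, which encodes Bim, a killer protein that cytokines repress, had 2.86 to 10.4 TPM in day 2 blood, against 16.3 to 26.8 TPM in eHB (log2 fold change -1.25 ± 0.21, adjusted p 0.00336).

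Genes of other cell types that the cultures could hold were examined in the same libraries. The fibroblast collagens Col1a1 and Col3a1 and the proteoglycan gene Dcn were at most 0.498, 3.45 and 0.072 TPM in any library, and Col3a1 was highest in FL10 blood. The basement membrane chain Col4a1 had 40.1, 37, 308, 91.4 and 384 TPM in day 2 blood, against 346, 316, 563, 548 and 593 TPM in eHB (log2 fold change -1.40 ± 0.36, adjusted p 0.0161), and Fn1, fibronectin, had 305, 125, 364, 209 and 553 TPM in day 2 blood, against 89.9, 122, 89.4, 136 and 90.3 TPM in eHB (log2 fold change 2.09 ± 0.36, adjusted p 0.00351). Both overlapped, Fn1 through FL4 blood. In the count of collagens and matrix genes 2 of 8 were called higher and 4 lower, and without M5 3 were higher and 2 lower. Acta2, smooth muscle actin, had 1.26, 29.8, 46.7, 8.03 and 22 TPM in day 2 blood, against 6.39, 69, 169, 194 and 58.5 TPM in eHB (log2 fold change -1.55 ± 0.50, adjusted p 0.0343). The call was lost for Acta2 without M5 or FL10 (adjusted p 0.0737 to 0.0772) and for Col4a1 without M5 or RB3.6.5 (adjusted p 0.054 to 0.0573). Smooth muscle genes as a list summed to 162 to 329.7 TPM in day 2 blood, against 52.2 to 404 TPM in eHB. Of 6 tested smooth muscle and pericyte genes 3 were called higher and 2 lower, Acta2 among the lower ones, and the median log2 fold change was 1.67. The mesoderm factors Gata4 and Gata6 were lower in all 5 lines (log2 fold changes -3.23 ± 0.71 and -4.06 ± 0.75, adjusted p 0.00867 and 0.00447), with eHB levels highest in the ES-derived lines. Liver parenchyma genes summed to 17.1 to 32.3 TPM in day 2 blood, against 2.07 to 4.23 TPM in eHB, and 1 of 3 tested members was called higher and none lower. Their part in the other results was not tested. The liver gene Alb was at 0 to 0.105 TPM and the epithelial keratin gene Krt8 at 0 to 0.408 TPM in the 10 libraries. The pluripotency genes Pou5f1 and Sox2 were at 0.232 and 0.381 TPM or less. Lin28a, an RNA-binding protein of early embryos, was lower, with 0.325, 1.86, 3.37, 4.04 and 0.439 TPM in day 2 blood, against 33.8, 98.1, 49.1, 93.2 and 72.4 TPM in eHB (log2 fold change -4.84 ± 0.55, adjusted p 0.000898). Of 12 imprinted genes 4 were called lower and none higher, against 25.7% lower and 27.5% higher of all genes. Nnat and Plagl1 were among those called lower (log2 fold changes -3.85 ± 0.29 and -2.59 ± 0.27, adjusted p 0.000266 and 0.000693).

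The genes with the largest change over all genes, taken by rule, included on the higher side Hbb-bh1, Hbb-bt, Tubb1, Clec1b and Treml1, which are described above, and genes outside those groups. Nov, a matricellular protein of the CCN family, had 13.6, 1.93, 80.2, 90.2 and 119.9 TPM in day 2 blood and no count in eHB, at least 7126-fold higher against a floor of 3 counts over the group. FL4 had the least Nov. Cst7, which encodes cystatin F, a protease inhibitor of blood cells, had 101, 42.5, 134, 181 and 81.6 TPM in day 2 blood and no count in eHB, at least 4292-fold higher. In these 2 genes FL4 was also the lowest blood library, as it was for Gp49a. Gp49a, an immunoglobulin-type receptor of mast cells, had 75, 2.47, 41.5, 70.9 and 83.4 TPM in day 2 blood and no count in eHB, at least 2983-fold higher. Sla, the Src-like adaptor that damps receptor signals, had 253, 45.1, 51.8, 152 and 87.9 TPM in day 2 blood and 2 counts over all eHB libraries, a ratio of counts of 15500 with a counting interval of 4291 to 128000. On the lower side Lim2, a membrane protein of the lens, had 0, 0.081, 0, 0 and 0 TPM in day 2 blood, against 86.4, 114, 156, 77 and 45.4 TPM in eHB, and its blood value comes from 1 count. Msi1, the RNA-binding protein Musashi, had 0.081, 0.03, 0.307, 0.061 and 0.511 TPM in day 2 blood, against 19, 36.3, 48, 72.9 and 82.4 TPM in eHB (log2 fold change -7.61 ± 0.49, adjusted p 0.00016). Scube2 and Gpr161, which act in hedgehog signalling, were called lower (log2 fold changes -6.32 ± 0.84 and -6.08 ± 0.34, adjusted p 0.00142 and 0.000107).

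Further genes on that side were Clic5, Nxf7, Necab2, Bmp6, Nav2 and Phlda2. Bmp6, a ligand of the BMP family, had 0.153, 0.03, 2.12, 0.112 and 1.45 TPM in day 2 blood, against 87.5, 43.6, 87.5, 38.8 and 18.2 TPM in eHB (log2 fold change -6.04 ± 0.90, adjusted p 0.00205). Phlda2, an imprinted gene that limits placental growth, had 0.305, 0.881, 0.338, 1.61 and 0.102 TPM in day 2 blood, against 68, 21.6, 9.65, 94.7 and 272 TPM in eHB (log2 fold change -5.80 ± 0.94, adjusted p 0.00277). The other 4 had log2 fold changes of -7.34 ± 0.70 (Clic5), -7.09 ± 0.59 (Nxf7), -6.63 ± 0.44 (Necab2) and -5.82 ± 0.36 (Nav2). Against the endothelial cultures the rule named Pygl, the liver-type glycogen phosphorylase, on the higher side (log2 fold change 8.88 ± 0.35, adjusted p 7.35e-05), with 14.54, 11.47, 15.9, 86.4 and 24.5 TPM in day 2 blood and 0.022 to 0.229 TPM in endothelial cultures. On the lower side it named Esm1, the endothelial proteoglycan endocan (log2 fold change -12.35 ± 0.32, adjusted p 3.22e-05), with 0, 0.041, 0.092, 0.041 and 0.112 TPM in day 2 blood and 138 to 719.5 TPM in endothelial cultures. Stc1, the secreted hormone stanniocalcin, was named as well (log2 fold change -9.96 ± 0.88, adjusted p 0.000194), with 0.031, 0, 0.461, 0 and 1.11 TPM in day 2 blood and 111 to 395 TPM in endothelial cultures.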

How the data were processed

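Polyadenylated RNA was sequenced with a TruSeq kit on an Illumina HiSeq, per the labels' protocols, and each line gave 1 library at each stage. The authors deposited expected counts per gene, which need not be whole numbers, and TPM values that the file name calls renormalised, in 2 tables of 20314 rows. Bowtie 0.12.9, CASAVA 1.8.2, RSEM 1.2.3 and build mm10 are named in the submitters' processing notes. Whether counting used strand is not given in the sources used here. The TPM header has 1 name more than its columns, and the shift was settled by the pattern of zeros, which was closest to the matching count column in 31 of 31 libraries.

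For this report the deposited expected counts were rounded to whole numbers and tested with edgeR 4.0.16 (TMM, filterByExpr, robust quasi-likelihood, line as block, Benjamini-Hochberg adjustment over all tested genes, threshold 0.05) in R 4.3.3, and the fit was tested on simulated data. There the fit of day 2 blood against eHB called 20% of true log2 changes of 1 and 100% of those of 3. In that simulation 100 of 12811 genes changed by each amount, and all genes had the same spread. In the data 53.2% of genes were called and spreads differ between genes, so the rates there may differ. Day 2 blood was also tested against endothelial cultures, and another fit tested whether the change differed between 3 tissue-derived and 2 ES-derived lines. The block rests on the shared cell line: deviations of same-line libraries from their group means correlated at 0.16 to 0.29 over 11676 genes, against -0.27 to 0.21 for libraries of different lines (highest for RB4.6.9 blood with RB3.6.5 eHB). No pair of libraries was a duplicate (mean chi-square per gene 45.9 to 467 over 20 pairs). The library numbers of the ES-derived eHB samples stand apart from those of the other eHB samples and of all day 2 blood samples. Among eHB samples this cannot be told apart from origin. Within the ES-derived lines it cannot be told apart from stage, which also bears on the fit of origin. P-values measure the spread between 5 lines. Counting intervals are 95% intervals and cover counting error only. Alternatives were DESeq2 1.42.0, RLE size factors, no filter, no block, limma 3.58.1 on log2(TPM + 1) and log2(TPM + 0.1), glmTreat against a 2-fold change, each line left out, lines of 1 origin only, and globin rows left out.

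The comparison, the gene lists and the rules were chosen with earlier results of these data known. Genes were named by rule: the sort genes, the cytokine receptors and the ectopic factors with their endogenous genes; up to 10 genes per direction by fold change with a mean of at least 20 TPM and no overlap; up to 5 called members of each list in its main direction and 2 in the other, with a mean of at least 10 TPM; up to 6 per direction against endothelial cultures; and the cell type markers. Some genes these rules name are not reported here. Named outside these rules, after their values were seen, were Axin2, Cbfa2t3, Cdkn1a, Csf3r, Ctsg, Elane, Erg, Fermt3, Gfi1, Gfi1b, Gp5, Gp6, Gzmb, Hba-a1, Hbb-bs, Hlf, Ldha, Lyl1, Mki67, Myb, Npm1, Rnf43, Slc2a1, Smad6, Sox2, Tie1, Vegfa and Zfpm1. Sequences come from RefSeq promoter windows of build GRCm38.p6.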

Additional observations from a re-analysis of the deposited data

Results flagged for a closer look

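In 382 pairs of gene and group, 34 had 1 of 5 libraries standing far from the other 4 (Dixon's test, critical value 0.71), 12 in day 2 blood and 22 in eHB. Chance flags about 1 in 20 such groups. Most of the eHB flags were in line M5. There the red cell and platelet genes Hba-x (29.1 TPM), Hba-a1 (5.87), Hba-a2 (8.27), Alas2 (7.55), Pf4 (12.2) and Fermt3 (139) were above the other 4 eHB lines, as were Ankrd37 (6.53 TPM), Rnf43 (0.948), Csf1r (0.411), Stc1 (0.4) and Cpa3 (0.063). Gata2 (74.8 TPM), Itgb5 (1.85) and Nxf7 (22.5) were below them.

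Line FL4 stood out in day 2 blood with low Bcl2l1 (57.5 TPM), Lcp2 (26.8), Ndrg1 (15.9) and Gp49a (2.47), and with a trace of Lim2 (0.081). FL4 eHB was the highest for Lyz2 (1.69 TPM), Sla (0.063) and Tubb1 (0.053). In day 2 blood, M5 was the lowest for Ccne2 (2.28 TPM) and Insig1 (32.8). FL10 blood was the highest for Gpr161 (0.635 TPM) and Col3a1 (3.45), and FL10 eHB for Sox2 (0.381). RB3.6.5 blood was the highest for Krt8 (0.408 TPM) and Pou5f1 (0.133), and RB3.6.5 eHB for Pim2 (46.5). RB4.6.9 blood was the highest for Clic5 (0.817 TPM). RB4.6.9 eHB was the lowest for Tie1 (0.959 TPM) and Hbb-bs (0) and the highest for Treml1 (0.044). Several of these values are near 0 and rest on a few counts.

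For Smad6 the change in tissue-derived lines minus that in ES-derived lines was 6.92 on the log2 scale (SE 0.999, unadjusted p 0.00039 and adjusted p 0.384 in edgeR). All 3 tissue-derived lines were higher and both ES-derived lines lower in day 2 blood than in eHB, and the difference did not pass the adjusted threshold.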

How the results depend on the processing

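Counts of genes called in day 2 blood against eHB depended most on the scale and the threshold. With limma on log2(TPM + 1) 1753 genes were higher and 5929 lower, and with log2(TPM + 0.1) 1789 and 6010, on a scale whose median gene was lower in day 2 blood. With glmTreat against a 2-fold change 1280 were higher and 928 lower. The tissue-derived lines alone gave 2110 higher and 1563 lower, and the ES-derived lines alone 2400 higher and 2030 lower, from fewer samples. Leaving out 1 line gave 2748 to 3097 higher and 2409 to 2818 lower. DESeq2 gave 3776 and 3574, RLE size factors 3370 and 3168, and no filter 3567 and 3412. Against endothelial cultures DESeq2 gave 4266 higher and 4452 lower, and leaving out 1 line 3617 to 3969 higher and 3610 to 4047 lower. For the difference between origins 667 to 2339 genes had an unadjusted p under 0.05 when 1 line was left out, and no other tool was run.

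Of 156 named genes called in the paired fit, 107 kept their call in every setting and 0 changed sign. Without the replicate block 3498 genes were higher and 3134 lower, 11 named calls were lost, among them those of Id1 (adjusted p 0.179), Nnat (0.0545) and Plagl1 (0.0696), and Cdkn1a (0.0411) and Pecam1 (0.044) were called higher. Signs changed for 3 genes that were not called, and the cause was not tested: Csf2ra with limma (-0.38 and -0.35), Smad6 with the ES-derived lines alone (-2.74), with 1 line left out (-0.026 without FL4, up to 2.88), with limma on log2(TPM + 1) (-0.15) and without the block (-1.22), and Vegfa with the tissue-derived lines alone (0.36) and with 1 line left out (-0.33 to 0.11, with 0.015 without RB4.6.9). Of list counts 82 of 569 moved by over 1.5 times. The median changed sign for BMP genes (ES-derived lines alone, without FL4, no filter), integrins (limma), collagens (without M5, no filter) and venous genes (without FL10 or M5, limma, no block). Genes at or near 0 counts in eHB allow a lower bound of the fold alone, and for Hbb-bt that bound is not firm, because its split from Hbb-bs is uncertain.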
